A study of Drosophila melanogaster with 2 samples.

Results

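The nuclear genes for subunits of the mitochondrial respiratory chain were followed in chromatin immunoprecipitation sequencing (ChIP-seq) peak lists for p53 in Drosophila melanogaster embryos. Members were the protein-coding genes of the Ensembl BDGP6 annotation, outside the mitochondrial genome, whose symbols begin with ND-, COX and a digit, ATPsyn, UQCR, SdhA to SdhD, or Cyt-c. The rule found 91 genes among 13945 protein-coding genes on the 6 chromosome arms that the lists name. Complex I (NADH dehydrogenase) was represented by 40 genes, complex II (succinate dehydrogenase) by 7, complex III (cytochrome bc1) by 11, complex IV (cytochrome c oxidase) by 16, complex V (ATP synthase) by 15 and cytochrome c by 2. Symbols that end in L, or in L and a digit, name 25 paralogues of these genes and are called testis-type paralogues here. ND-MNLL ends in L as well, but it is the main gene of a complex I subunit and was counted as such, which left 66 main genes.

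The respiratory chain sits in the inner mitochondrial membrane. Complexes I and II pass electrons to ubiquinone, complex III passes them on to cytochrome c, and complex IV hands them to oxygen. The proton gradient built on the way drives ATP synthesis by complex V. Most subunits are made from nuclear genes that are active in nearly every tissue, and in mammals cytochrome c also sets off cell death by apoptosis. Many of these subunits have a further gene copy in Drosophila that is used mainly in the male germline. In flies as in mammals, p53 is a transcription factor of the response to DNA damage.

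There was 1 group of 2 biological replicates, numbered 2 and 3. Both were chromatin from whole embryos of mixed sex, 0 to 24 h old, of the strain p53-MiMIC-GFP, in which an eGFP exon within an intron of p53 makes a p53-eGFP fusion from the gene's own locus. All samples analysed here belong to this group, so nothing here compares conditions. The labels give p53 as the antibody in one field and describe a precipitation with an anti-GFP antibody in another. Since all cells of the embryo were pooled, a strong peak in few cells and a weak peak in many cannot be told apart.

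The peak lists are in the dm6 build. The final list, selected by the irreproducible discovery rate (IDR), holds 2290 peaks and is called the IDR list. These peaks are the strongest regions of the list made from both replicates together (the pooled list, 26752 regions). Each replicate has a list of its own with 30000 regions. The signal value is the authors' measure of a region's strength, in units the sources used here do not state, and it was read only within a list. A gene had a peak when the distance from a summit to at least 1 of its annotated transcription start sites (TSSs) was 1 kb or less. The read depth behind each peak is unknown.

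Sequences are shown first, and run from summit to TSS, the distance used in the counts below. The lines here are RefSeq Release 6 (dm6) sequence at the promoters of main genes chosen for a close IDR peak. The summit lay at most 120 bp upstream of the TSS, and no other gene's TSS was nearer. These genes are not typical, since another gene's TSS was nearer for 10 of the 18 members with an IDR peak. Each line runs 5′ to 3′ on the gene's strand, from 30 bases beyond the peak's summit to an annotated TSS. The final base, in capitals, is the TSS, and other capitals mark a word of the list searched (the M1BP word GGTCACAC or the GAGA factor word GAGAG, on either strand). A label of no word holds for the bases shown alone. In the longer promoter window used further below, ATPsynC had the M1BP word.
ND-51 (chr2L:6062757-6062852, minus strand, no word): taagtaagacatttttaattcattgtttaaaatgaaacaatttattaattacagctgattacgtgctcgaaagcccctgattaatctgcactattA
COX6B (chrX:19744335-19744401, minus strand): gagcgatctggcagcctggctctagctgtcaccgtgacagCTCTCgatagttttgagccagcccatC
ATPsynC (chr3R:31219630-31219701, minus strand, no word): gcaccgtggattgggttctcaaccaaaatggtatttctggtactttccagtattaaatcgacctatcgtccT
ND-B17 (chr2L:15751078-15751199, minus strand): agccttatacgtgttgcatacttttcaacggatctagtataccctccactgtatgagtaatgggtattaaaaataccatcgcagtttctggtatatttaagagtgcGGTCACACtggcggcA
Cyt-c-p (chr2L:16719792-16719932, plus strand): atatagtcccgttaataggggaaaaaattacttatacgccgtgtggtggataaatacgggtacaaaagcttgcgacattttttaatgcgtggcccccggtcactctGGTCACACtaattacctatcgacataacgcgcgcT

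Of the 91 members, 18 had an IDR peak (19.8%), against 15.5% of all protein-coding genes. The share of the members was thus near the background. The peaks were of middling strength. None of the members had a region among the first 500 of the pooled list, 8 had their strongest region between ranks 501 and 1000, and 10 between ranks 1001 and 2290. A further 16 members had theirs between ranks 2291 and 4580, below the end of the IDR list. The strongest member peak, at COX5A, had a signal value of 152.0, in a list that runs from 75.8 to 1970. Across the members with an IDR peak the median signal value was 109.3, and across all genes with an IDR peak it was 111.9.

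Main genes and paralogues differed in their counts. IDR peaks lay near 17 of 66 main genes (25.8%) and 1 of 25 paralogues (4.00%). Any region of the pooled list, called or not, lay near 52 main genes (78.8%) and 11 paralogues (44.0%), against 61.1% of all genes. Pooled regions with a deposited q of 0.01 or less lay near 25 main genes and 2 paralogues, together 27 members (29.7%), against 21.3% of all genes. In replicate 2's own list such regions lay near 17 main genes and no paralogue, against 12.1% of all genes. In replicate 3's own list they lay near 30 main genes and 2 paralogues, against 25.6% of all genes. With genes that have no region set at 0, the median signal value of the strongest pooled region was 47.0 for main genes, 0 for paralogues and 29.0 for all genes.

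**Figure D1:**
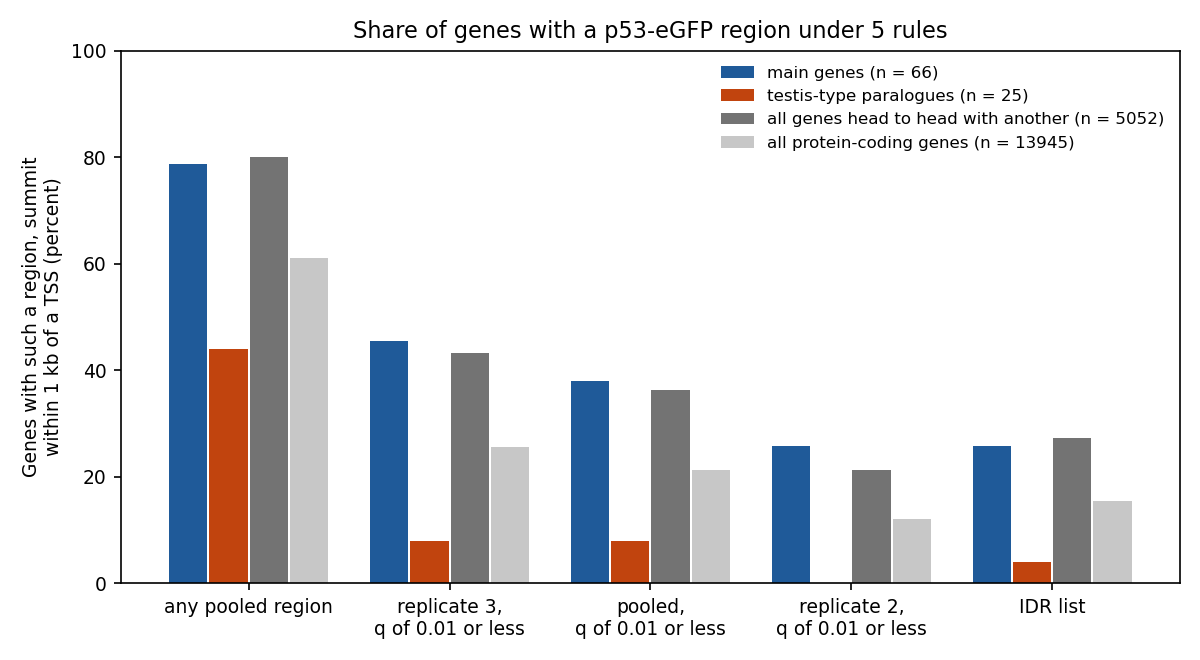
Percent of genes with a region whose summit lies within 1 kb of a TSS, under 5 rules, for the 66 main genes, the 25 testis-type paralogues, all 5052 genes with a head-to-head neighbour and all 13945 protein-coding genes. Bars are shares of genes, with no replicates behind them. Main genes stand at 25.8% and head-to-head genes at 27.2% in the IDR list, and paralogues at 4.00%.

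Main genes and paralogues were also arranged differently in the genome. A head-to-head gene has a protein-coding TSS on the other strand, pointing away, within 1 kb upstream, so that a single peak can count for both genes. Of the main genes 41 (62.1%) were head to head, of the paralogues 4 (16.0%), and of all genes 36.2%. Among head-to-head genes, 13 of 41 main genes had an IDR peak (31.7%), and 27.2% of all such genes did. Among the other genes, 4 of 25 main genes had a peak (16.0%), and 8.86% of all such genes did. The median signal value of the strongest pooled region, with unlisted genes at 0, was 57.5 for head-to-head main genes and 46.6 for all head-to-head genes. It was 39.3 for the other main genes and 23.4 for all other genes. Of the 21 paralogues without such a neighbour 1 had a peak (4.76%), and of the 4 with one none had.

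Peaks could often not be given to the member alone. For 14 of the 18 members the summit also lay within 1 kb of another protein-coding gene's TSS (77.8%). Among all genes with an IDR peak 63.7% shared their strongest peak in this way. For 10 of the 18, another gene's TSS was nearer to the summit than the member's own. When each summit was given only to the gene with the nearest TSS, 8 members kept a peak (8.79%), 7 of them main genes, against 10.8% of all genes. COX6B kept its peak through a tie with CG18809. Under that rule the members' share lay slightly below the background, where it had lain slightly above it. Both shares were near the background, so no change of direction is read from them. At ND-B17, ATPsynC, COX7AL2 and Cyt-c-p no other protein-coding TSS lay within 1 kb of the summit.

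Complex I takes electrons from NADH and is the largest complex of the chain. IDR peaks lay near 9 of its 40 genes (22.5%), against 15.5% of all genes. All 9 were among its 34 main genes. Of the 7 main genes for the conserved core subunits, which carry the flavin and the iron-sulphur clusters, 2 had a peak, ND-51 and ND-24. Of the 27 accessory genes 7 had one (25.9%), a share close to that of the core genes (28.6%). The counts are too small to order these groups.

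ND-51 encodes the subunit that binds NADH and the flavin. Its peak at chr2L:6062624-6063019 had a signal value of 143.7 (rank 613), and the overlapping regions had 67.5 in replicate 2 (rank 478) and 74.0 in replicate 3 (rank 887). This was the highest of the 18 in replicate 2's list, and the summit lay 65 bp upstream of the TSS of ND-51, nearer than any other. ND-24 encodes an iron-sulphur partner of ND-51. Its peak had a signal value of 85.3 (rank 1835), with 48.6 in replicate 2 and 58.4 in replicate 3. That summit lay closer to the TSS of corolla, which encodes a protein of the synaptonemal complex (99 bp), than to that of ND-24 (141 bp).

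The accessory subunits surround the core and are needed for its assembly and stability. The strongest peak among them was at ND-MWFE, at chr2R:13158254-13158649, which reached 146.3 (rank 591), 53.8 in replicate 2 and 94.8 in replicate 3. Its summit lay 7 bp from the TSS of TppII, a peptidase gene that is head to head with ND-MWFE, and 214 bp from that of ND-MWFE. The ND-MNLL peak had a signal value of 134.5 (rank 716), with 55.5 in replicate 2 and 79.1 in replicate 3. It too lay nearer to a neighbour, p115, which encodes a vesicle tether of the Golgi (39 bp against 272 bp). ND-ASHI shared a peak of 107.0 (rank 1180; 37.8 and 68.3 in replicates 2 and 3) with Fum1, the gene of fumarase, an enzyme of the tricarboxylic acid cycle. The nearest TSS was that of Fum1, at 208 bp.

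The other accessory genes with a peak stood nearer to the end of the IDR list. ND-B17 (84.8, rank 1861) had the peak most unlike between replicates, with 17.2 in replicate 2 (rank 11510, q 0.592) and 61.5 in replicate 3 (rank 1364). ND-B18 (81.7, rank 1992) was higher in rank in replicate 2 (42.3, rank 1271) than in replicate 3 (38.6, rank 3474), and its summit lay 8 bp upstream of a TSS. ND-42 (76.9, rank 2230) had 24.2 in replicate 2 (q 0.167) and 52.4 in replicate 3. It shared the peak with Cchl, the gene of the enzyme that attaches haem to cytochrome c, whose TSS was 44 bp from the summit. ND-15 (78.6, rank 2136; 38.6 and 42.4 in replicates 2 and 3) had its summit 756 bp downstream of a TSS. That summit lay beyond the end of ND-15 and 58 bp from the TSS of CG3436. ND-15 had no peak when the window was 500 bp.

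Complex II passes electrons from succinate to ubiquinone and is part of the tricarboxylic acid cycle as well. None of its 7 genes had an IDR peak, against 15.5% of all genes, and 7 genes are too few to set the complex apart. The share at a pooled q of 0.01 or less was 3 of 7 (42.9%), against 21.3% of all genes. Those 3 were among its 4 main genes and lay below the end of the IDR list, SdhC and SdhB nearer to it than SdhD. SdhC, a membrane anchor subunit, had a pooled signal value of 73.3 (rank 2445, q 0.00184), with 21.0 in replicate 2 (q 0.335) and 52.4 in replicate 3. Its summit lay 316 bp upstream of its TSS and 82 bp from that of Tctp, its head-to-head neighbour. SdhB, the iron-sulphur subunit, had 71.3 (rank 2570, q 0.00253), with 30.9 in replicate 2 and 41.7 in replicate 3, at 37 bp from its TSS. SdhD, the other anchor, had 65.2 (rank 3020, q 0.0058), with 35.0 in replicate 2 and 29.3 in replicate 3, at 27 bp from its TSS. SdhA, the flavoprotein, had no pooled region within 1 kb, and neither had SdhAL, SdhBL and SdhCL.

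Complex III had no IDR peak at any of its 11 genes, against 15.5% of all genes. It had 3 genes with a pooled region at q of 0.01 or less (27.3%), near the 21.3% of all genes. With 11 genes, a count of 0 does not set the complex apart. UQCR-C2, a core protein of the complex, had 69.3 (rank 2703), with 28.1 in replicate 2 and 44.9 in replicate 3. UQCR-Q had 63.2, with 38.0 in replicate 2 and 26.6 in replicate 3. The third was a paralogue, Cyt-c1L. Its region ranked 2293 with a signal value of 75.7, immediately past the end of the IDR list, 690 bp upstream of its TSS. It had 11.9 in replicate 2 (q 0.918) and 57.3 in replicate 3 (q 0.000213), so a single replicate carried it. Cyt-c1, the main gene for cytochrome c1, had no region in the pooled list or in either replicate's list.

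Complex IV reduces oxygen to water. IDR peaks lay near 3 of its 8 main genes (37.5%) and 1 of its 8 paralogues (12.5%), against 15.5% of all genes. Of the 8 main genes 7 were head to head, and 27.2% of all head-to-head genes had an IDR peak. The counts are too small to set the complex apart. COX5A had the strongest peak of all members, at chr3R:11819310-11819705 (152.0, rank 544), with 45.5 in replicate 2 (rank 1095) and 104.9 in replicate 3 (rank 409). COX5A is head to head with glo, the gene of an RNA-binding protein, with their closest TSSs 20 bp apart. The summit lay 91 bp from a TSS of COX5A and 88 bp from a TSS of glo. COX6B had a peak of 140.4 (rank 645; 47.6 and 92.2 in replicates 2 and 3) at 36 bp from its TSS, and a TSS of CG18809 was just as near. COX5B had one of 111.6 (rank 1098; 43.6 and 66.0) that lay nearer to the TSS of IFT52, a gene of cilium transport (64 bp), than to its own (234 bp). All 3 had a q below 0.01 in each replicate's list. COX8 (67.0) and COX7B (66.8) were main genes with a pooled region at q of 0.01 or less but no IDR peak.

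Complex V makes ATP. IDR peaks lay near 3 of its 11 main genes (27.3%) and at none of its 4 paralogues, against 15.5% of all genes. Of the 11 main genes 8 were head to head, and the share over all head-to-head genes was 27.2%, close to that of these main genes. ATPsynC encodes the subunit of the membrane ring that turns as protons pass. Its peak at chr3R:31219473-31219868 had a signal value of 131.5 (rank 749), with 67.1 in replicate 2 (rank 487) and 61.5 in replicate 3 (rank 1362), and lay 41 bp upstream of its TSS. ATPsynF had a peak of 121.6 (rank 901; 48.0 and 87.7 in replicates 2 and 3) whose summit lay nearer to the TSS of CG3548 (56 bp) than to its own (70 bp). ATPsynE had one of 107.1 (rank 1178; 35.2 and 64.4) at 45 bp. All 3 summits lay within 100 bp upstream of a TSS of the gene. Among all genes with an IDR peak, 40.6% had the summit of the strongest within 100 bp of a TSS, and among the 18 members 8 did (44.4%).

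The 2 cytochrome c genes both had IDR peaks. They lie in tandem on 2L, and the peaks counted for them are separate. Cyt-c-p encodes the cytochrome c of most tissues, and Cyt-c-d the form that is used in the male germline, where it takes part in caspase activation during sperm maturation. Cyt-c-d had a peak at chr2L:16716164-16716559 (116.7, rank 993), with 56.5 in replicate 2 and 62.2 in replicate 3. Its summit lay 401 bp downstream of a TSS of Cyt-c-d and 167 bp from that of CG31808. Cyt-c-p had 2 peaks. The stronger, at chr2L:16719624-16720019 (103.2, rank 1259), lay 110 bp upstream of its TSS and had 29.4 in replicate 2 (q 0.0496) and 69.0 in replicate 3. The strongest region of replicate 2 within 1 kb of that TSS was another, with 39.3. The other ranked 1419, with a signal value of 97.7. A count of 2 genes has no weight as a share, and by its name Cyt-c-d does not count among the paralogues.

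**Figure D2:**
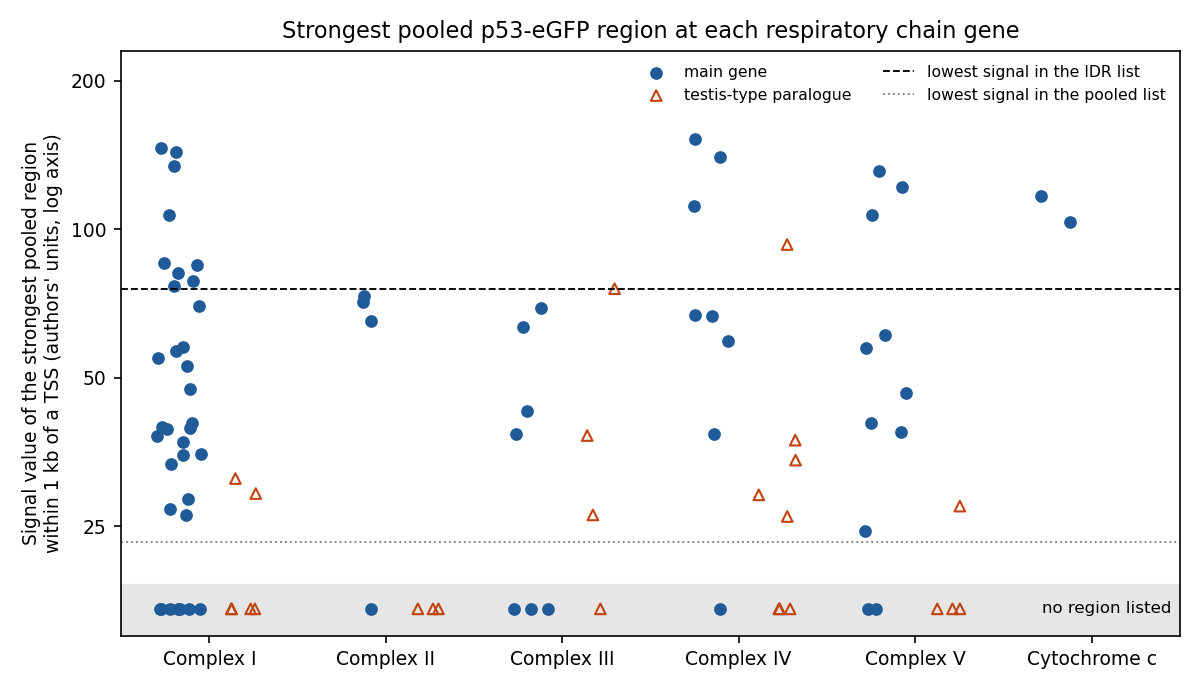
Signal value of the strongest pooled region within 1 kb of a TSS (log axis, authors' units) for each of the 91 members by complex; filled circles are main genes, open triangles testis-type paralogues, and the grey band holds genes with no region. Complexes II and III have no point above the end of the IDR list at 75.8, and COX5A is highest at 152.0.

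The testis-type paralogues were compared with their main genes in 25 pairs, in which 22 main genes took part. Main genes outside the symbol rule were taken for 4 paralogues: levy for COX6AL and COX6AL2, cype for COX6CL, and sun for ATPsynepsilonL. In 18 pairs the genes lie on different chromosome arms. The main gene had the stronger pooled region in 16 pairs, the paralogue in 7, and in 2 pairs neither gene had a region.

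The main gene's region was an IDR peak in 6 of the 16 pairs. ND-51 had 143.7 where ND-51L1 had 29.1 and ND-51L2 no region. COX5B had 111.6 and COX5BL 28.9, ND-24 had 85.3 and ND-24L no region, and levy had 84.0 where COX6AL had 37.4 and COX6AL2 no region. In 9 further pairs the paralogue had no region and the main gene had one outside the IDR list. These main genes were SdhC (73.3), SdhB (71.3), ATPsynbeta (61.1), ATPsynCF6 (57.5), ND-20 (56.7), UQCR-14 (42.8), COX4 (38.4), cype (37.5) and ND-B14.5A (27.1), beside SdhCL, SdhBL, ATPsynbetaL, ATPsynCF6L, ND-20L, UQCR-14L, COX4L, COX6CL and ND-B14.5AL. The last of the 16 was COX7C with 59.3 and COX7CL with 26.2.

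In all 7 pairs in which the paralogue had the stronger region, the main gene had no pooled region. The paralogues were COX7AL2 (93.1), Cyt-c1L (75.7), UQCR-11L (38.2), COX7AL (34.0), ND-49L (31.2), ATPsynepsilonL (27.5) and UQCR-6.4L (26.4). The main genes beside them were COX7A for both COX7AL2 and COX7AL, Cyt-c1, UQCR-11, ND-49, sun and UQCR-6.4. Apart from COX7AL2 and Cyt-c1L, these regions had a q between 0.316 and 0.84. The summits at UQCR-11L and COX7AL lay nearer to another gene's TSS. So did those of some main genes in the other pairs, among them ND-24 and COX5B. SdhAL and SdhA, and ATPsynGL and ATPsynG, were the pairs with no region at either gene.

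A single paralogue had an IDR peak, COX7AL2 (93.1, rank 1547), whose main gene COX7A had no pooled region. The peak had 26.7 in replicate 2 (q 0.0963) and 68.3 in replicate 3. Its summit lay 726 bp downstream of the TSS, inside the gene at chr2L:2192525-2197912, and fell outside a window of 500 bp. Of the 11 paralogues with a pooled region, the other 10 had signal values from 26.2 (COX7CL) to 75.7 (Cyt-c1L). That at COX7AL (34.0) lay 37 bp from the TSS of DppIII, a peptidase gene, and 768 bp from its own. That at UQCR-11L (38.2) lay 97 bp from the TSS of Acsl and 829 bp from its own. The remaining 14 paralogues had no pooled region. Of the 25 paralogues 6 have a single exon, as have none of the 66 main genes. None of those 6 had an IDR peak, against 6.49% of all single-exon genes.

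**Figure D3:**
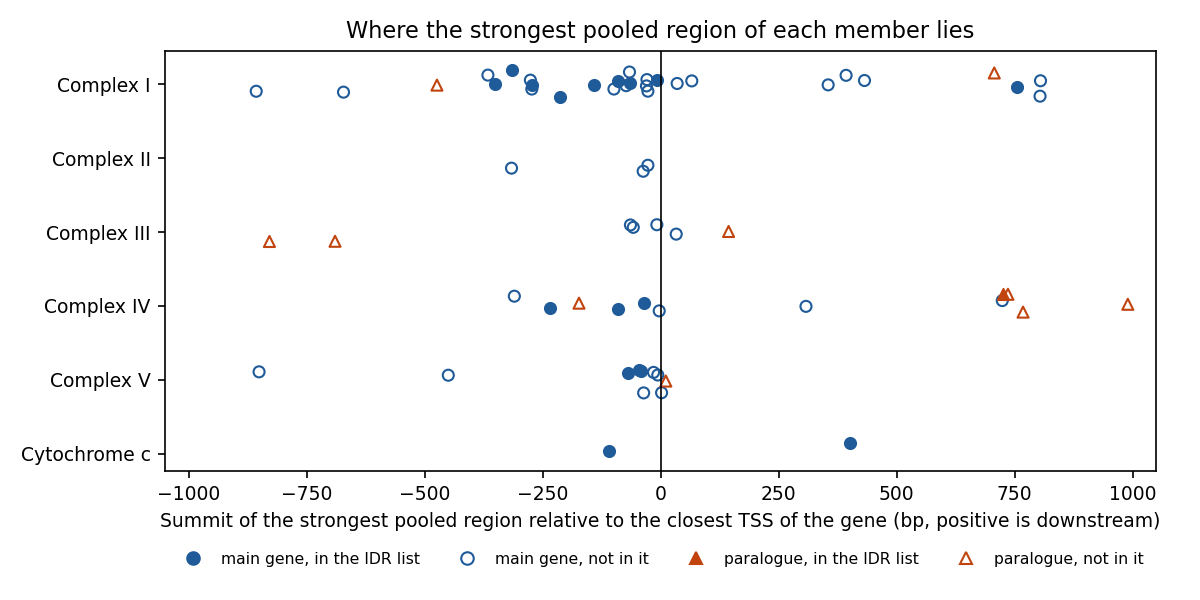
Distance in bp from the closest TSS of the gene to the summit of its strongest pooled region, for the 63 members with one; filled symbols are in the IDR list, circles are main genes and triangles paralogues. Complex V and complex IV main genes with IDR peaks sit between 36 and 234 bp upstream, and the paralogue peak of COX7AL2 sits 726 bp downstream.

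The members with an IDR peak came from 4 of the 6 arms. On 2L, 7 of 18 members had a peak, on X 5 of 13, on 3R 4 of 20, and on 2R 2 of 17. None of the 21 members on 3L had a peak, nor had either of those on chromosome 4. The shares over all genes were 15.3% on 2L, 16.1% on X, 16.0% on 3R, 15.5% on 2R, 14.9% on 3L and 11.2% on chromosome 4. On 3L, 5 members, all main genes, had a pooled region at q of 0.01 or less without an IDR peak: ND-SGDH (69.7), UQCR-C2, UQCR-Q, COX7B and COX8.

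The replicates ranked the members alike in part. Of the 91 members, 57 had a region in both replicates' lists, 4 in replicate 2's list alone, 15 in replicate 3's alone and 15 in neither. Over those 57, Spearman's rho of the strongest signal values was 0.657, a description with no p, since the members share both libraries and the control. For the 18 members with an IDR peak, the overlapping regions had signal values from 17.2 to 67.5 in replicate 2 (median 44.5). In replicate 3 they had values from 38.6 to 104.9 (median 67.1). The regions of all 18 had a q of 0.01 or less in replicate 3, and those of 14 did in replicate 2. The exceptions were ND-42, ND-B17, COX7AL2 and Cyt-c-p. Such a q in both replicates was held by 72.1% of the IDR peaks found in both lists.

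**Figure D4:**
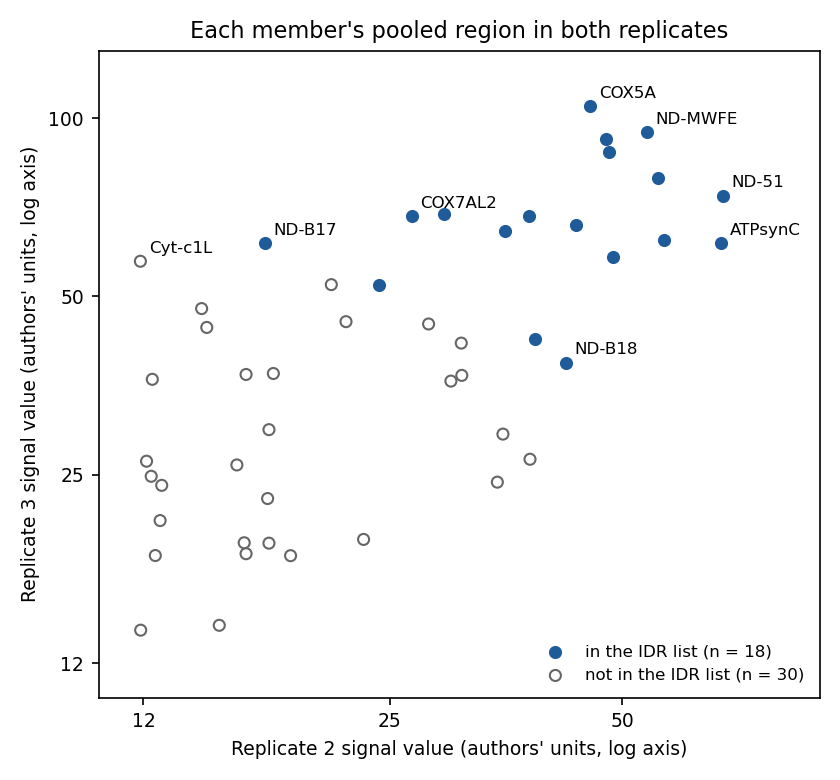
Signal values (log axes, authors' units) of the replicate regions that overlap each member's strongest pooled region, for the 48 members whose region was found in both replicates' lists; filled circles are the 18 in the IDR list. ND-51 is highest in replicate 2 (67.5) and COX5A in replicate 3 (104.9), and ND-B17 is the lowest filled circle in replicate 2 (17.2).

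Short DNA words were looked for on either strand, up to 100 bp from the summit and in the promoter, which ran from 250 bp before to 50 bp after the gene's 5′ end. The M1BP word (GGTCACAC), bound by a factor of promoters with paused polymerase, was in the promoters of 16 of 66 main genes (24.2%, 95% Wilson interval 15.5 to 35.8), 1 of 25 paralogues and 7.70% of all genes. Such intervals cover counting error only. Among head-to-head genes it was in 9 of 41 main promoters (22.0%) against 13.2% of all, and among the other genes in 7 of 25 (interval 14.3% to 47.6%) against 4.58%. It was in 6 of 17 main promoters with an IDR peak and 10 of 49 without one. The lines below show the word, in capitals and on the gene's strand, near the summit of the strongest region of main genes that had no IDR peak. The sites at UQCR-Q and UQCR-C2 lay outside the promoter searched, so neither gene is among the 10. The pooled regions of ND-PDSW and ATPsynD had a q of 0.0416 and 0.245, and at ATPsynD the word lay 87 bp from the summit.
ND-PDSW (chr2L:3466119-3466148, plus strand): gtgcggcatagGTGTGACCactacctcgaa
ATPsynD (chr3R:19094884-19094913, plus strand): ggcagctgataGTGTGACCgacccgagggt
UQCR-Q (chr3L:17475067-17475096, plus strand): ggcccgtccacGGTCACACtggttgagacg
UQCR-C2 (chr3L:16584232-16584261, plus strand): gctggtactcgGTGTGACCattttggagcg

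At the summits of the 18 members' IDR peaks the M1BP word was in 3 (16.7%), at ND-15, ND-B17 and Cyt-c-p. It was in 6.49% of all 1602 IDR peaks within 1 kb of a TSS. At ND-15 the word lay 834 bp downstream of the TSS, beyond the end of the gene. Within 50 bp of the summit the word was in none of the 18. In the strongest regions of the members without an IDR peak it was in 7 of 45 (15.6%). The Wilson intervals of the 2 member shares, 5.84% to 39.2% and 7.75% to 28.8%, overlap over most of their length. The 6.49% of all IDR peaks near a TSS lies inside the first and just below the second. A match says only that the letters are present, and the factor itself was not measured.

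The DREF word (TATCGATA), bound by a factor of growth and housekeeping promoters, was in 2 of the 18 member peaks (11.1%) and in 8.93% of all IDR peaks near a TSS. It was in the promoters of 9 of 66 main genes (13.6%), in none of the 25 paralogues and in 9.36% of all genes, or 15.8% of all head-to-head genes. In the strongest regions of the members without an IDR peak it was in 3 of 45 (6.67%). Among these was the SdhC region, where the word lay 1 bp from the summit. That site was 315 bp upstream of the TSS of SdhC, outside the promoter searched. The site in the ATPsynE peak, 15 bp upstream of a TSS inside that gene, was outside the promoter searched too. The lines below show the sites in the 2 member peaks and at SdhC on the gene's strand, with the word in capitals.
ATPsynE (chr3R:14327039-14327068, plus strand): accaatacaacTATCGATAgccgcctgtca
ND-MNLL (chrX:7893993-7894022, minus strand): agacgcccactTATCGATAagcggcttgtc
SdhC (chr3R:11210150-11210179, minus strand): tactatacacgTATCGATAatttcaatgtt

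The p53 half-site was in none of the 18 member peaks and in none of the 45 strongest regions of the other members, against 4.12% of all IDR peaks near a TSS. With 18 peaks, the Wilson interval of that 0 reaches 17.6%, so the background share lies inside it. Within 200 bp of the summit it was in 1 of those 45 regions. In promoters it was in 4 of 66 main genes (6.06%), 4 of 25 paralogues (16.0%, interval 6.4 to 34.7) and 5.67% of all genes. A word taken for the nuclear respiratory gene element was in no member's peak or promoter and in 0.158% of all promoters. Its letters come from no source used here, and the count holds for those letters alone. The GAGA factor word (GAGAG) was in 3 member peaks (16.7%) against 24.1% of IDR peaks near a TSS. In promoters it was in 12 of 66 main genes (18.2%), 11 of 25 paralogues (44.0%) and 29.7% of all genes. The TATA box word (TATAAA) was in 5 member peaks (27.8%) against 23.3%. In promoters it was in 40 of 66 main genes (60.6%, interval 48.5 to 71.5), 9 of 25 paralogues (36.0%) and 45.8% of all genes. The E-box (CACGTG), the C/EBP-type word (TTGCGCAA) and the Ets word (CCGGAAG) were in no member's IDR peak, and in 3.43%, 0.250% and 1.06% of all IDR peaks near a TSS. In promoters the E-box was in 3 of 66 main genes (4.55%) and 2 of 25 paralogues, against 4.20% of all genes. The C/EBP-type word was in 1 member promoter, that of ATPsynE, and in 0.402% of all promoters. The Ets word was in no member promoter and in 1.09% of all. The median GC content within 100 bp of the summit was 40.5% for member peaks and 40.3% for all IDR peaks near a TSS.

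Other genes of mitochondrial energy metabolism were taken from 5 lists. In all, 42 genes matched the annotation and 13 of them had an IDR peak (31.0%), against the 15.5% of all genes. Most of the 42 were head to head, and of all head-to-head genes 27.2% had an IDR peak. Subunits with symbols outside the rule had peaks at 2 of 7, which were blw, the α subunit of ATP synthase (83.1, rank 1923), and levy of complex IV (84.0, rank 1885), whose summit lay nearer to the TSS of wmd (80 bp). RFeSP and ox, both of complex III, had pooled signal values of 65.8 and 62.9 and no IDR peak, so that no complex III subunit gained a peak with these genes added. Assembly factors had peaks at 3 of 11. CIA30, a factor of complex I assembly, had a signal value of 299.5 (rank 120), above every member, and sloth1 and sloth2, which share a transcript, had a peak of 89.0 that lay nearer to the TSS of cm (66 bp).

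In the tricarboxylic acid cycle 3 of 11 genes had a peak, which were mAcon1 (124.6), Idh3b (90.6) and Fum1, the last by the peak it shares with ND-ASHI. Of 5 carriers of the inner and outer membrane 1 had a peak, Mpcp2, a phosphate carrier (91.3). Of 8 regulators of mitochondrial genes 4 had one. These were Dref (145.1), with its summit 13 bp from the TSS of RpL13, srl, the homologue of the coactivator PGC-1 (91.9), ewg, the homologue of NRF-1 (88.9), and Ets97D (75.9, rank 2280). TFAM, the packaging factor of mitochondrial DNA, had a pooled signal value of 27.1 and no IDR peak. The lists are short and were chosen with earlier results of these data known, so their shares describe these genes alone.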

How the data were processed

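Data were ChIP-seq peak lists of 2 biological replicates and of both together, in dm6. Per the labels, chromatin was sonicated to 200 to 800 bp. The signal value, and the −log10 q-value per region, are the authors' deposited columns; q is printed here as a plain value. The sources used here name no aligner, peak caller, IDR threshold or scaling of the signal, and the control library was not used here. Per the deposited provenance lists, replicate lists and the pooled list hold peaks with background regions meant as IDR input. The lists in dm3 were not used here.

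Summit positions, from the deposited offset column, were compared with every annotated transcript start in Ensembl release 115 (Python 3.11.15, pandas 2.3.3, numpy 2.4.6, scipy 1.17.1). No region ended past a Release 6 chromosome. In all lists 0 per-sample columns were left out. The 28 protein-coding genes off the 6 arms were left out, none of them a member. A list symbol missing from the annotation was matched by RefSeq synonym. The members, lists and words were chosen with earlier results of these data known, no test was run over members, and shares stand beside those of all genes. Named genes are every member with an IDR peak, every paralogue with its main gene, every complex II and cytochrome c gene, members just inside and outside the end of the IDR list, and list genes with an IDR peak; RFeSP, ox, TFAM and other members were added after their values were seen. Distances and word searches were tested on simulated data.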

Additional observations from a re-analysis of the deposited data

How the results depend on the processing

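The count of 18 members with an IDR peak ranged from 18 to 20 when the strongest regions of a single replicate's list, as many as the IDR list holds, were used, and 15 or 16 of the 18 were the same genes. With peaks above the median signal of the IDR list alone the count was 9 in all, 3 for complex I, 1 for cytochrome c and 0 for paralogues. Giving each summit only to the gene with the nearest TSS left 8 members, 3 of complex I, 2 of complex IV and 1 cytochrome c gene. Taking pooled regions at q of 0.01 or less gave complex II 3 genes, complex III 3 and the paralogues 2, where the IDR list gave 0, 0 and 1. With a replicate left out, complex II and complex III had 1 gene each (1 to 1), and the paralogues 0 to 2. Complex I then had 7 to 8 genes, complex IV 3 to 5, complex V 3 to 4 and cytochrome c 2 to 2. Within 500 bp the paralogues had 0. The M1BP word was in 0.00% of member peaks within 50 bp of the summit. A count was taken as close within 1.5 times the main count, and a share of peaks with a word within the main share's 95% Wilson interval. By these limits 41 of 60 values under alternatives were close and 19 moved. The limits are wide for small numbers: 27 members at a pooled q of 0.01 or less, against 18, and 1 peak with the DREF word within 50 bp, against 2, count as close. The causes were not tested. No paired analysis was possible because there is 1 group. The counts of complexes II and III were 0 in the IDR list and 3 each with pooled regions at q of 0.01 or less. The depth behind the lists is unknown.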
